A study of Mus musculus with 10 samples.

Results

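Peroxisomes are small organelles bounded by a single membrane, and 34 of the genes that build and run them are described here in mouse liver. The genes were listed by symbol and matched to the NCBI Gene numbers that name the rows of the count table. All 34 were found among its 27179 genes. They comprise 11 peroxins, 18 matrix enzymes, 2 membrane transporters and 3 ether lipid enzymes. The rule for the list used no measured value, but the genes were chosen with earlier results of these data known.

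Peroxins insert the organelle's membrane proteins and import its enzymes in a folded state. The receptors Pex5 and Pex7 bind short targeting signals in the cytosol, dock on the membrane and are recycled. Inside, hepatocyte peroxisomes shorten very long, branched and bile acid precursor chains by beta-oxidation, degrade the hydrogen peroxide this makes with catalase, and carry out the first steps of ether lipid synthesis. Ether lipids, plasmalogens among them, are phospholipids whose first chain is linked by an ether bond. Many peroxisomal oxidation genes in rodent liver are targets of PPARalpha, a nuclear receptor activated by fatty acids.

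RNA was measured in whole liver of C57BL/6 male mice after 12 weeks on a NASH diet, a feed that causes fatty and inflamed liver. The 5 control mice carried floxed alleles of Lpcat3 (Lpcat3f/f) without Cre, and the 5 LKO mice carried the same alleles with Albumin-Cre. Lpcat3 encodes an acyltransferase that puts polyunsaturated chains into phospholipids, and the albumin promoter drives Cre in hepatocytes. Whether the other liver cells kept the gene was not measured here. Both groups were on the diet, and no group with Cre alone, with wild-type alleles or on another diet is compared here. The labels used here give no age. The comparison asks what loss of hepatocyte Lpcat3 does to liver in this diet model. Each mouse gave 1 library, and in whole tissue fewer cells of a type and less RNA per cell cannot be told apart.

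Libraries held 26914124 to 46727182 counts, of which the 34 genes took 0.964% to 1.27%. Lpcat3 was at 94.1 to 123.9 CPM in control and 25.5 to 38.5 CPM in LKO, where CPM is a gene's counts relative to its library's total after TMM scaling, which adjusts for library composition. Its log2 fold change was -1.79 (SE 0.12, edgeR adjusted p = 0.000151), as the labels have it. Library 4 of the controls (control 4) and library 3 of the LKO mice (LKO 3) stood apart from the rest of their groups on the first principal component. Hepatocyte markers (7 genes) summed to 40730 CPM in control 4 and to 62140 to 68930 in the other controls, and to 36670 in LKO 3 within an LKO range of 35740 to 52850. Alb alone made up 27298 CPM of the sum in control 4 and 24830 CPM in LKO 3. Stellate cell and myofibroblast markers (6 genes) summed to 360.3 in control 4 against 82.98 to 151.7 in the other controls, and to 676.4 in LKO 3 against 194.5 to 354.7 in the other LKO libraries. Cholangiocyte markers (5 genes) summed to 157.4 in control 4 and to 361.5 in LKO 3, against 23.3 to 32.25 and 28.0 to 214.6 in the others of each group. Most of these 2 sums was 1 gene, Spp1, at 144.5 CPM in control 4 and 316.0 CPM in LKO 3. Macrophage markers (7 genes) ran from 180.5 to 371.3 in control and from 307.6 to 465.7 in LKO, with the maxima in control 4 and LKO 3. The 2 adipocyte markers, Adipoq and Plin1, summed to 16.9 in LKO 3 and to at most 0.189 in any other library, including 0 in control 2. Endothelial markers (5 genes) ran from 278.6 to 343 in control and 284.6 to 444.6 in LKO. Neutrophil markers (3 genes, Ly6g at 0 in some libraries) summed to 0.340 to 1.06 CPM in control and 1.23 to 5.07 in LKO, without overlap. Among them S100a8 was at a log2 fold change of 2.07. Markers of T and NK cells (4 genes) summed to 0.808 to 2.64 and 1.53 to 3.80, highest in control 4 and LKO 3, and those of B cells (3 genes) to 1.07 to 1.93 and 1.60 to 3.11.

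Markers thus lay on different sides by cell type. All 7 hepatocyte markers had a lower mean in LKO, while all 5 endothelial, 6 stellate cell and 5 cholangiocyte markers and 6 of the 7 macrophage markers had a higher one. Of the 39 markers that could be tested, 17 were higher and 2 lower at an unadjusted p under 0.05 (48.7% in either direction, against 22.3% of all genes). None passed edgeR's test after adjustment. The part of these cells in the results below was not tested.

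None of the 34 genes passed edgeR's quasi-likelihood test at an adjusted p under 0.05, a threshold that 10 of 15226 genes passed (0.0657%). The smallest adjusted p was 0.103, for Nudt19. At an unadjusted p under 0.05, 5 members were higher in LKO (Ehhadh, Acaa1b, Abcd2, Agps and Far1), where 12.8% of all genes tested were. On the same criterion 3 were lower (Nudt19, Pecr and Acox3), where 9.50% of all genes were (22.3% in either direction). With libraries scaled by total counts alone, which puts the median of all genes at 0.235, this split was 12 higher and 0 lower, where 24.7% of all genes were higher and 1.92% lower. The 2 groups did not overlap for Ehhadh, higher in every LKO library (1.72% of all genes), and for Nudt19, lower in every LKO library (2.23%, and 3.95% in either direction). DESeq2 passed 2 members (Ehhadh and Nudt19, against 7.79% of all genes). limma voom with sample weights passed 6 (Abcd2, Agps, Ehhadh, Far1, Nudt19 and Pecr, against 16.2%).

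**Figure D1:**
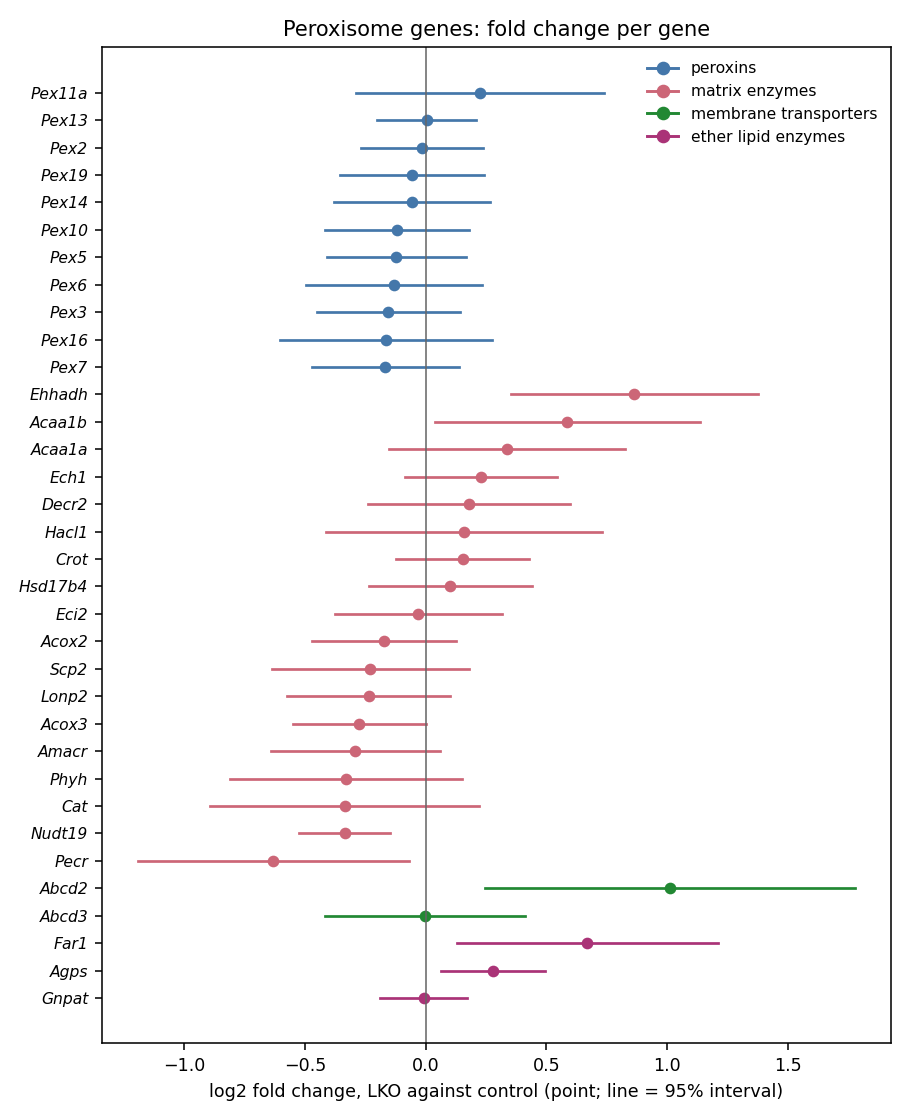
The log2 fold change of LKO against control (x axis; points, with lines for the 95% interval) for each of the 34 genes (y axis), coloured by class. Every peroxin interval includes 0, while the matrix enzymes spread from -0.63 (Pecr) to 0.86 (Ehhadh) and the widest interval belongs to Abcd2.

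Before the groups are compared, the abundance of each gene places the classes on a common scale. Levels were divided by the length of each gene's merged exons, taken from GENCODE M21, and are given as CPM per kilobase. Catalase (Cat), which splits hydrogen peroxide, stood at 1331 ± 342 CPM per kilobase in control (SD, n = 5). Scp2, which makes a thiolase for branched chains and a sterol carrier protein from the same gene, stood at 1321 ± 222. These 2 did not differ beyond their spread. Next came Acaa1b at 515 ± 177, Hsd17b4, the bifunctional enzyme for branched and very long chains, at 205 ± 21.6, and Phyh, which starts alpha-oxidation of phytanic acid, at 176 ± 42.6.

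Peroxins were less abundant. They ran from 0.242 CPM per kilobase for Pex11a to 29.0 ± 1.86 for Pex19, the cytosolic carrier of membrane proteins. All but 2 of the 18 matrix enzymes (Nudt19 at 8.63 and Acox3 at 3.999) were above every peroxin. The ether lipid enzymes were at 9.39 ± 0.846 (Gnpat), 2.12 ± 0.222 (Agps) and 0.969 ± 0.295 (Far1), no higher than the middle of the peroxins. The 2 transporters lay far apart, at 149 ± 19.5 for Abcd3 and 2.77 ± 1.65 for Abcd2.

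**Figure D2:**
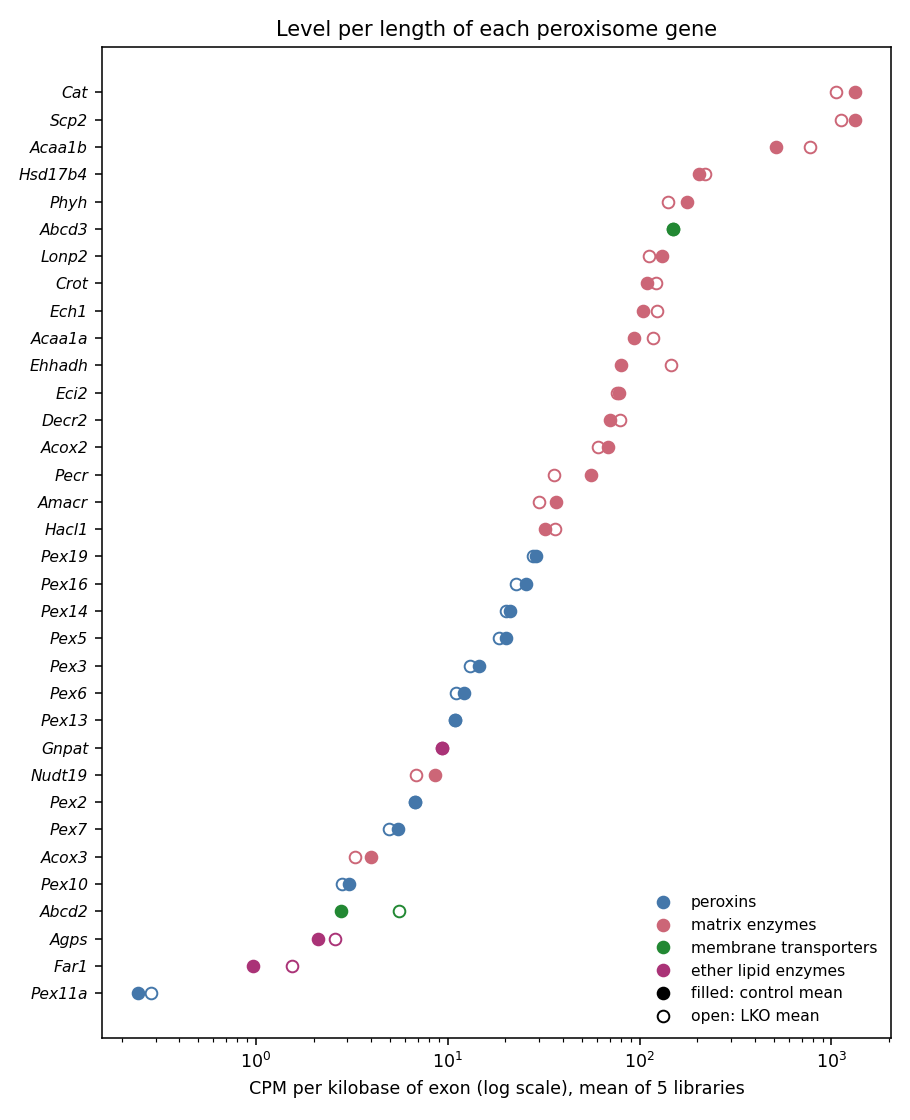
Mean level of each gene (y axis) in CPM per kilobase of exon on a log scale (x axis), with filled points for control and open points for LKO, n = 5 libraries each. Cat and Scp2 lead at 1331 and 1321 in control, and Pex11a is last at 0.242.

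Fold changes spanned the narrowest range in the peroxins. Their log2 fold changes ran from -0.17 (Pex7) to 0.22 (Pex11a) with standard errors of 0.09 to 0.23. Of the 11 genes 9 had a lower and 2 a higher mean in LKO, with a median of -0.12 against -0.00 over all genes tested. By edgeR none passed at an adjusted p under 0.05, and none had an unadjusted p under 0.05, where 22.3% of all genes did. With total-count scaling the median was 0.12, against 0.235 over all genes tested. Pex7, Pex3 and Pex5 then stood at 0.07, 0.07 and 0.10. The sign thus depends on the scaling, while the peroxin median was below that of all genes under both.

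Pex5, the receptor for the C-terminal signal that most matrix enzymes carry, stood at 67.5, 74.0, 62.3, 61.0 and 63.85 CPM in control 1 to 5. In LKO 1 to 5 it stood at 66.1, 67.3, 40.3, 65.2 and 63.3 CPM. Only LKO 3 was outside the control range. The fit gave a log2 fold change of -0.12 (95% interval -0.41 to 0.17, edgeR adjusted p = 0.605).

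Pex7, the receptor for the N-terminal signal of Phyh, Agps and the Acaa1 thiolases, stood at 47.8, 47.8, 42.7, 35.7 and 50.15 CPM in control. Its levels in LKO were 42.5, 44.7, 27.4, 43.2 and 41.9 CPM. The groups overlapped, and LKO 3 was again the lowest library. The fitted log2 difference was -0.17 (95% interval -0.47 to 0.14, edgeR adjusted p = 0.489).

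Pex3, which anchors Pex19 at the membrane, stood at 32.3, 33.8, 33.0, 26.4 and 36.7 CPM across the controls and at 32.8, 29.7, 20.9, 34.6 and 27.8 CPM across LKO. Its log2 fold change was -0.15 (SE 0.13, edgeR adjusted p = 0.511). Pex11a, which elongates peroxisomes before they divide and is a PPARalpha target in rodents, was barely detected. It stood at 0.604, 0.527, 0.574, 0.451 and 0.558 CPM over control 1 to 5, and LKO 1 to 5 held 0.722, 0.546, 0.428, 0.662 and 0.820 CPM, with overlapping groups. Its log2 fold change was 0.22 (95% interval -0.29 to 0.74, edgeR adjusted p = 0.588). Pex3 overlaps Adat2, Pex11a overlaps Wdr93 and Pex13 overlaps Pus10 in the annotation, so reads there may belong to either gene.

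The other 7 peroxins serve membrane assembly (Pex16, Pex19), docking (Pex13, Pex14), ubiquitination of the receptors (Pex2, Pex10) and their extraction (Pex6). Their log2 fold changes ran from -0.16 (Pex16) to 0.00 (Pex13), and the smallest edgeR adjusted p among them was 0.621. Their intervals bound the differences: for Pex13 the 95% interval was -0.20 to 0.21, and for Pex2 -0.27 to 0.24.

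LKO 3 was the lowest LKO library for 9 of the 11 peroxins, and control 4 the lowest control for 10 of 11. The mean of the peroxins on the log2 CPM scale, relative to the mean of the controls, was -0.53 in LKO 3 and -0.06 to 0.08 in the other LKO libraries. It was -0.22 in control 4 and 0.01 to 0.11 in the other controls. Without LKO 3 the median log2 fold change was -0.01, with 5 peroxins higher and 6 lower.

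**Figure D3:**
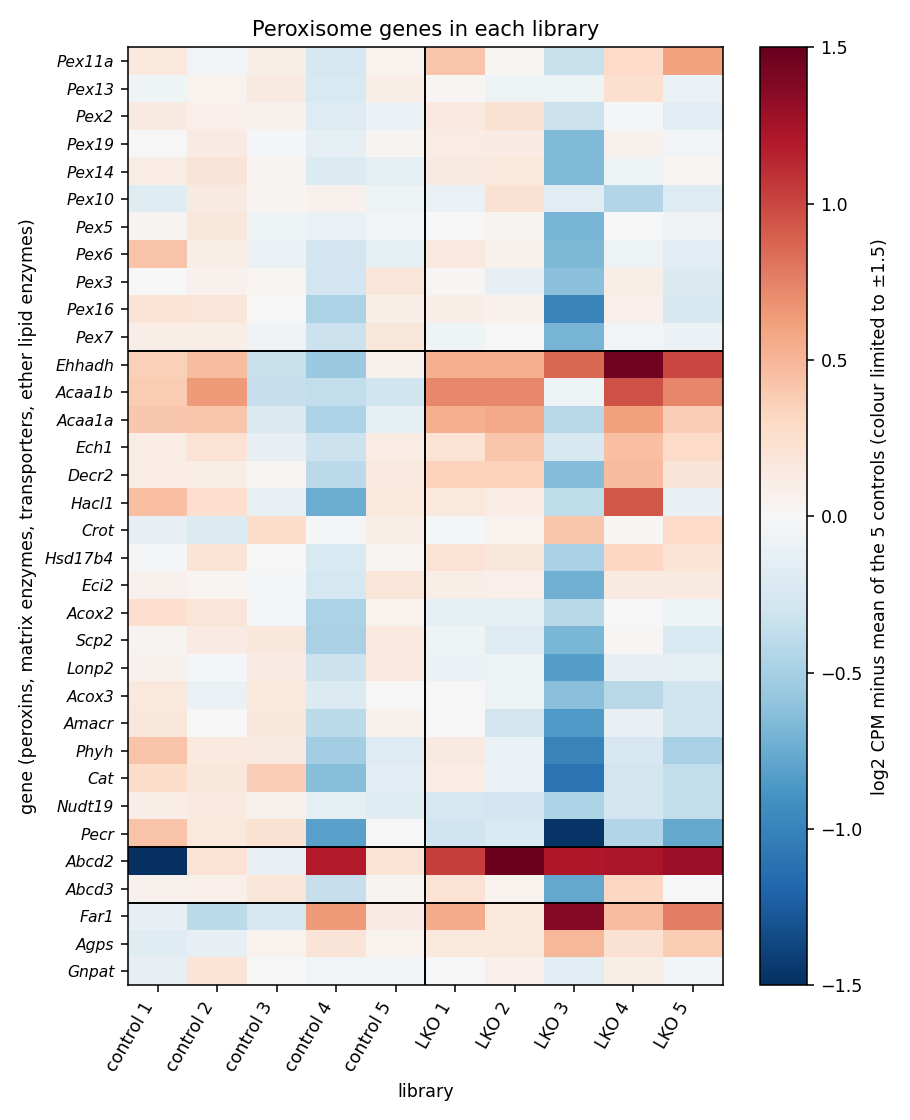
Log2 CPM of each gene (y axis, by class) in each of the 10 libraries (x axis) minus the mean of the 5 controls, with colour limited to 1.5 either way. Control 4 and LKO 3 are pale to dark blue through most peroxins and matrix enzymes, while Abcd2 and Far1 are red in both.

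The matrix enzymes spread more widely. Of 18 genes 8 had a higher and 10 a lower mean in LKO, with a median of -0.10 and a range of -0.63 to 0.86. At an unadjusted p under 0.05, 2 were higher and 3 lower (12.8% and 9.50% of all genes), and none passed after adjustment by edgeR. Members that act one after the other in beta-oxidation lay on both sides of 0. Among the 7 core enzymes the median was 0.10, with Ehhadh and Acaa1b at the top and Acox3 at the bottom.

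The members with the largest positive values in the matrix were Ehhadh and Acaa1b. The 250 bases before their start sites are shown with those of Acaa1a, the near copy of Acaa1b, and of Cat, because rodent genes of this set are known PPARalpha targets. The sequences are from RefSeq on GRCm38.p6, each written 5′ to 3′ on the strand of its gene. Capitals mark CCAAT, the NF-Y box, on either strand (ATTGG on the other) in the first 3 and, in Cat, the 13 bases closest to the receptor's motif.
Ehhadh, chr16:21787835-21788084, minus strand: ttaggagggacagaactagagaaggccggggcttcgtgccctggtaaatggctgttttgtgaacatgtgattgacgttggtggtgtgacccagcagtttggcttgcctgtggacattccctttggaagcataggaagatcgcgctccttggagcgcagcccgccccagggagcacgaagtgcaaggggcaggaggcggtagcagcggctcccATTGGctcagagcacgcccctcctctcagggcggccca
Acaa1b, chr9:119157094-119157343, minus strand: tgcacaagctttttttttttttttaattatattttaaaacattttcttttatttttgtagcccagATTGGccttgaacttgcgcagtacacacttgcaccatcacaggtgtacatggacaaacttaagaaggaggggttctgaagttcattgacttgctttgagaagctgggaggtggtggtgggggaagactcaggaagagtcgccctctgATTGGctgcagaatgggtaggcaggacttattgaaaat
Acaa1a, chr9:119341044-119341293, plus strand: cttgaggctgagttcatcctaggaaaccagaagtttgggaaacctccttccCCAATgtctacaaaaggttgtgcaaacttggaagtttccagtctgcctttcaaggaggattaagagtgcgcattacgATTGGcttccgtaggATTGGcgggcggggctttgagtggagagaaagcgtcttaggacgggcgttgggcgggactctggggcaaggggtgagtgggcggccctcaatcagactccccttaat
Cat, chr2:103485154-103485403, minus strand: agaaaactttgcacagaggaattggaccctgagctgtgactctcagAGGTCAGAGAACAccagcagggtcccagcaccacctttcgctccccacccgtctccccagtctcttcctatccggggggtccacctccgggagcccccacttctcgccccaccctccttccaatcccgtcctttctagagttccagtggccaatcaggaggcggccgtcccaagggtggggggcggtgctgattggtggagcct

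The motif searched was the direct repeat bound by PPARalpha with its partner RXR, AGGTCA, any base, then AGGTCA again, on both strands. RefSeq start sites were matched for 29 of the 34 genes, with 35 promoters. The exact motif was in 0 of the 35, against 0.0552% of 14481 promoters matched for 11447 of the 15226 tested genes. With up to 2 mismatches it was in 1 of 35 (2.86%, against 2.62%), namely Cat, whose AGGTCAGAGAACA begins 204 bases before the start. A single AGGTCA was in 2 of 35 (5.71% against 11.6%), Cat and Scp2, and the Cat match lies inside that 13-base window. CCAAT was in 15 of 35 promoters (42.9% against 35.3%): once in Ehhadh, in 2 places in Acaa1b, in 3 in Acaa1a and in 4 in Cat, where it is left in lower case. TATAAA was in 0 of 35 (4.43% of all). A match is a description of the letters, and the absence of one concerns this window alone.

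Ehhadh encodes the bifunctional enzyme that hydrates and dehydrogenates straight-chain intermediates. Its level was 296, 318, 183, 156 and 240.0 CPM in control 1 to 5, and 332, 333, 416, 628 and 462 CPM in LKO 1 to 5. Every LKO library lay above every control, with the gap between 318 and 332 narrow beside the spread within either group. Means were 239 ± 69.8 and 434 ± 122 CPM (SD, n = 5), a log2 fold change of 0.86 (SE 0.23, edgeR adjusted p = 0.108). DESeq2 gave an adjusted p of 0.0107.

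Acaa1b, a thiolase that cuts acetyl-CoA from the chain, stood at 1080.3, 1295, 654, 646 and 676 CPM in the control libraries, against 1372, 1372, 796, 1620.1 and 1379.5 CPM in LKO. LKO 3 lay among the controls, and the other 4 LKO libraries lay above all of them. On the log2 scale the fold change was 0.59 (SE 0.25, edgeR adjusted p = 0.202). Acaa1a, its paralog with the same activity, stood at 211, 214, 138, 116 and 145 CPM in control 1 to 5, whereas LKO 1 to 5 stood at 232, 238, 119.8, 245 and 206 CPM. Here LKO 3 and LKO 5 lay within the control range, and the log2 fold change was 0.34 (SE 0.22, edgeR adjusted p = 0.379).

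These 2 thiolases can share reads, so their coding sequences were compared. Both are 1275 bases long in GENCODE M21 on GRCm38 and differ at 44 bases (96.5% identity), with a longest identical run of 327 bases. Of the 1175 windows of 101 bases, the read length, 280 were identical. The window with the most differences, bases 452 to 552 of the coding sequence, holds 14, shown in capitals.
Acaa1a: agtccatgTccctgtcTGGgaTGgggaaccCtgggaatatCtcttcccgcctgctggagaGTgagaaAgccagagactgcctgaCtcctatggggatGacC
Acaa1b: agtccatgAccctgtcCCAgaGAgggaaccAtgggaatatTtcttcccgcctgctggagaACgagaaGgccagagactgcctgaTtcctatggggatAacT
Over all exons, 21.4% of the 101-base windows of Acaa1a and 22.4% of those of Acaa1b occur in the other gene. The sources used here do not state how reads that match both were counted, so the split between the 2 genes is uncertain. Acaa1b also overlaps Dlec1. Shared windows were found for 4 further members: Hacl1 (52.7%, with Gm49387), Scp2 (32.0%, with Scp2-ps2), Gnpat (6.24%, with Gm16163) and Eci2 (1.28%, with Eci3).

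**Figure D4:**
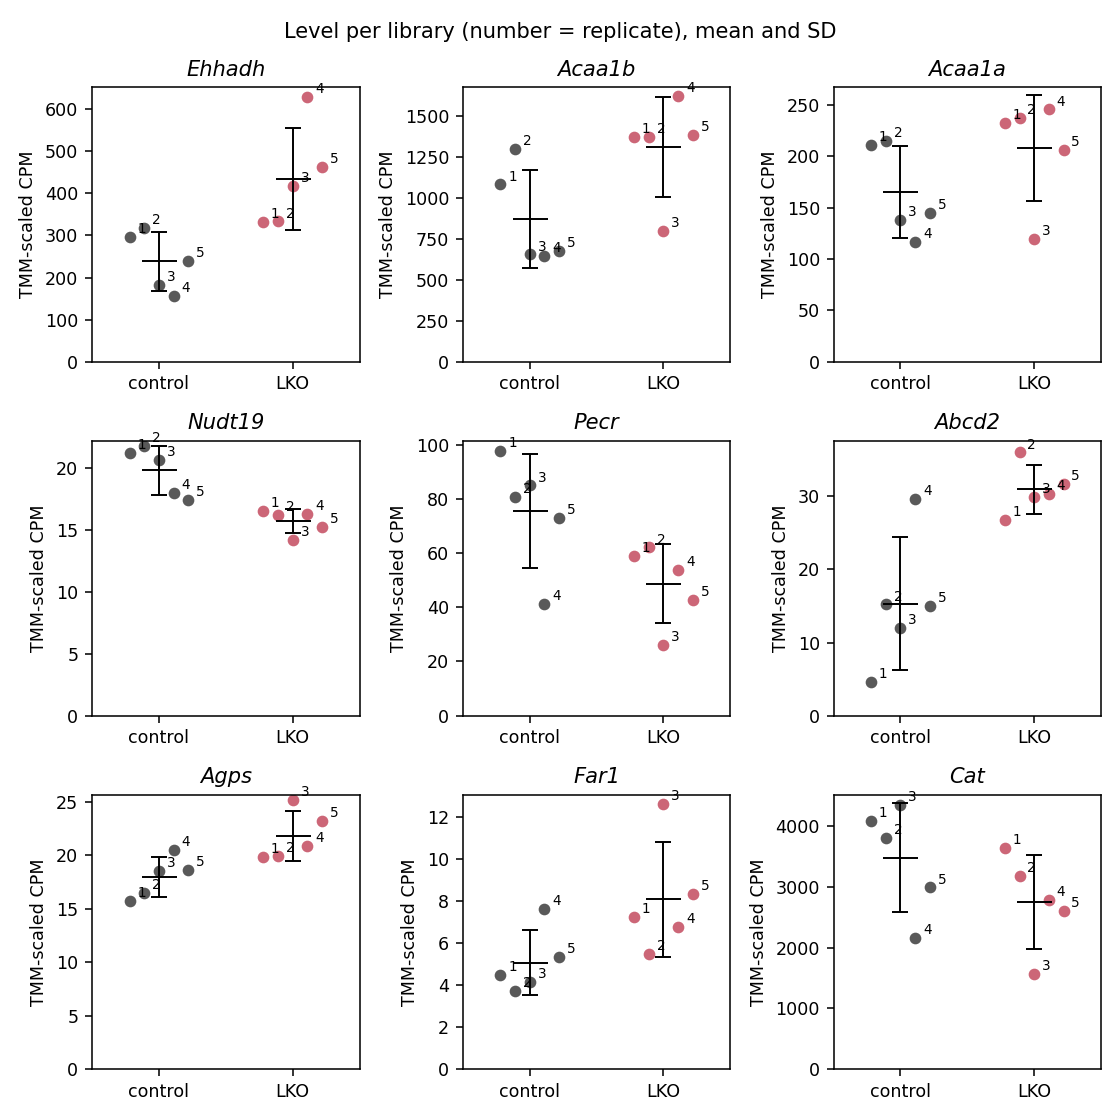
TMM-scaled CPM (y axis, from 0) in each library for 9 genes, with points numbered by replicate and bars for the mean and SD of each group (n = 5). The groups do not overlap for Ehhadh and Nudt19, and control 4 sits at 29.7 CPM for Abcd2, inside the LKO range.

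Nudt19, a hydrolase that degrades coenzyme A and its esters, stood at 21.2, 21.8, 20.7, 17.99 and 17.5 CPM across the controls and at 16.5, 16.2, 14.2, 16.3 and 15.3 CPM across LKO. Every LKO library was below every control. Means were 19.8 ± 1.97 and 15.7 ± 0.976 CPM, a log2 fold change of -0.34 (SE 0.09, edgeR adjusted p = 0.103). DESeq2 gave an adjusted p of 0.0110. With total-count scaling the log2 fold change was -0.10, and the groups overlapped.

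Pecr, the reductase of trans-2-enoyl-CoA, stood at 97.8, 80.8, 84.9, 41.2 and 73.0 CPM in the control libraries, against 59.0, 62.1, 26.2, 53.6 and 42.8 CPM in LKO. Control 4 was the only control within the LKO range, and LKO 3 was the lowest of all libraries. For Pecr the log2 fold change was -0.63 (SE 0.26, edgeR adjusted p = 0.186). Without control 4 it was -0.79 (edgeR adjusted p = 0.0353), where 15.0% of all genes passed. Without LKO 3 it was -0.48 and did not pass.

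Acox3, an oxidase for branched chains, stood at 30.4, 25.4, 30.5, 23.6 and 27.3 CPM in control 1 to 5, whereas LKO 1 to 5 stood at 27.2, 25.9, 17.7, 20.4 and 22.2 CPM. The fit gave a log2 fold change of -0.28 (SE 0.13, edgeR adjusted p = 0.223), with overlapping groups. With total-count scaling it was -0.04. The locus of Acox3 overlaps the noncoding RNA 4931431C16Rik.

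Amacr, a racemase that readies branched chains and bile acid precursors for oxidation, stood at 105, 93.0, 105, 70.3 and 97.4 CPM across the controls and at 93.8, 77.3, 51.8, 86.4 and 75.7 CPM across LKO (log2 fold change -0.29, edgeR adjusted p = 0.291). Ech1, an isomerase of dienoyl-CoA, stood at 143, 152, 121, 106 and 142 CPM in the control libraries, against 152, 176, 111, 179.5 and 160.4 CPM in LKO (0.23, edgeR adjusted p = 0.351). Lonp2, the matrix protease, stood at 401, 379, 417, 308 and 422 CPM in control 1 to 5, whereas LKO 1 to 5 stood at 361, 364, 216, 350.4 and 346 CPM (-0.24, edgeR adjusted p = 0.374). In all 3 genes the groups overlapped. LKO 3 was the lowest LKO library and control 4 the lowest control.

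Cat stood at 4086, 3808, 4344, 2164 and 2989 CPM across the controls and at 3636, 3183, 1572, 2778 and 2608 CPM across LKO. The fitted log2 difference was -0.34 (95% interval -0.89 to 0.22, edgeR adjusted p = 0.445), and the groups overlapped widely. Phyh was at -0.33 (SE 0.22, edgeR adjusted p = 0.3796). The other 7 matrix enzymes were Acox2, an oxidase of bile acid precursors (-0.17), Scp2 (-0.23), Crot, which moves shortened chains to carnitine for export (0.15), Decr2, a dienoyl-CoA reductase (0.18), Hacl1, a lyase of alpha-oxidation (0.16), Eci2, an enoyl-CoA isomerase (-0.03), and Hsd17b4 (0.10). Their edgeR adjusted p-values were all at or above 0.466.

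The 2 transporters of the membrane carry acyl-CoA into the organelle. Abcd2, a half-transporter of very long and polyunsaturated chains that is usually low in liver, had the largest standard error of any member. It stood at 4.61, 15.2, 12.0, 29.7 and 15.1 CPM in the control libraries, against 26.8, 36.0, 30.0, 30.4 and 31.7 CPM in LKO. The LKO libraries were close together, and control 4 was the only control among them. Means were 15.3 ± 9.10 and 31.0 ± 3.35 CPM, a log2 fold change of 1.01 (SE 0.35, edgeR adjusted p = 0.149). Without control 4 the log2 fold change was 1.395 (edgeR adjusted p = 0.0130), where 15.0% of all genes passed. Without control 1, the lowest library, it was 0.78 (edgeR adjusted p = 0.212).

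Abcd3, the abundant transporter of branched and dicarboxylic chains, stood at 561, 566.5, 608, 422 and 551 CPM in control. In LKO it stood at 625, 558, 315, 668 and 534 CPM. Means were 542 ± 70.5 and 540.3 ± 136 CPM, with a log2 fold change of -0.00 (95% interval -0.42 to 0.41, edgeR adjusted p = 0.994). The sign is not fixed by these data, since 7 of the 12 alternatives apart from leave-one-out gave a positive value.

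Ether lipid synthesis begins with Gnpat, which acylates dihydroxyacetone phosphate, and with Agps, which exchanges that acyl chain for an alcohol. Far1 reduces acyl-CoA to the alcohol and is known to limit the rate of plasmalogen synthesis. The 3 enzymes did not lie together: the median log2 fold change was 0.28, with Far1 at 0.67, Agps at 0.28 and Gnpat at -0.01. At an unadjusted p under 0.05, 2 of the 3 were higher, where 12.8% of all genes were, and by edgeR none passed after adjustment.

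Agps stood at 15.7, 16.5, 18.5, 20.5 and 18.6 CPM in control 1 to 5, whereas LKO 1 to 5 stood at 19.9, 20.0, 25.2, 20.9 and 23.2 CPM. Control 4 was the only control above any LKO library. On the log2 scale the fold change was 0.28 (SE 0.10, edgeR adjusted p = 0.152). Without control 4 it was 0.33 (edgeR adjusted p = 0.0460), where 15.0% of all genes passed. Without LKO 3 it was 0.22 (edgeR adjusted p = 0.276).

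Far1 stood at 4.49, 3.72, 4.15, 7.61 and 5.35 CPM across the controls and at 7.22, 5.49, 12.6, 6.75 and 8.32 CPM across LKO. Control 4 was again the only control within the LKO range, and LKO 3 was the highest of all libraries. For Far1 the log2 fold change was 0.67 (SE 0.25, edgeR adjusted p = 0.161). It was 0.86 without control 4 (edgeR adjusted p = 0.0325), where 15.0% of all genes passed. Without LKO 3 it was 0.45 and did not pass.

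Gnpat stood at 25.7, 32.3, 27.8, 27.1 and 27.2 CPM in the control libraries, against 28.1, 29.5, 24.8, 29.7 and 27.2 CPM in LKO. All LKO libraries but LKO 3 were inside the control range. The fit gave a log2 fold change of -0.01 (95% interval -0.19 to 0.17, edgeR adjusted p = 0.962), the narrowest interval of the 34. Its sign changed under other scalings and filters, for example to 0.22 with total counts, where the median of all genes was 0.235.

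Set side by side, the class medians were -0.12 for peroxins, -0.10 for matrix enzymes and 0.28 for ether lipid enzymes, against -0.00 for all genes. Class means per library show the same order. Relative to the controls, the LKO mean was -0.09 ± 0.26 for peroxins and -0.02 ± 0.28 for matrix enzymes, where the control SDs were 0.13 and 0.24. For ether lipid enzymes it was 0.31 ± 0.16, with a control SD of 0.16. The difference of matrix enzymes minus peroxins was 0.06 ± 0.07 in LKO, within the control SD of 0.12. No test was made over the members of a class.

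The 2 libraries that stood apart were low in 2 classes and high in the other. LKO 3 had the lowest LKO mean of peroxins (-0.53) and of matrix enzymes (-0.51) and the highest of ether lipid enzymes (0.56). Control 4 had the lowest control mean of peroxins (-0.22) and of matrix enzymes (-0.41) and the highest of ether lipid enzymes (0.26). Summed markers of stellate cells, cholangiocytes, macrophages and T and NK cells were highest of their group in the same 2 libraries. The part of those cells in these values was not tested.

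**Figure D5:**
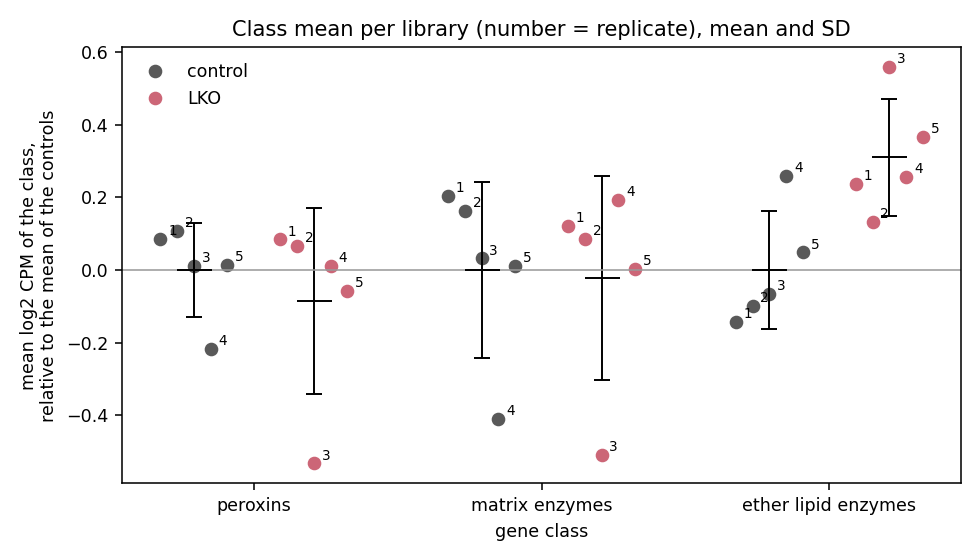
Mean log2 CPM of each class per library relative to the mean of the controls (y axis), for peroxins, matrix enzymes and ether lipid enzymes (x axis), with points numbered by replicate and bars for mean and SD (n = 5). LKO 3 is at -0.53, -0.51 and 0.56 in the 3 classes, and control 4 at -0.22, -0.41 and 0.26.

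Leaving libraries out changed how many members passed edgeR's test. Without control 4, 6 passed: Abcd2, Far1, Agps and Ehhadh were higher and Nudt19 and Pecr lower. That is 17.6% of the members, against 15.0% of the 15327 genes then tested. Without control 4 and LKO 3 together, 5 passed (14.7% against 15.6%), the same genes less Agps. The members' share was thus near that of all genes in both cases. None of the 11 peroxins passed in either. Without LKO 3 alone, 0 of the 34 passed by edgeR, with 7 higher and 2 lower at an unadjusted p under 0.05, where 8.84% of all 15292 genes then tested were higher and 8.40% lower.

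The titles also carry codes whose meaning the labels do not state, and only A54 is present in both groups, in control 1, LKO 1 and LKO 2. Controls 2 to 5 carry A55 and LKO 3 to 5 carry A67, so code and genotype cannot be told apart in those libraries. Within A54 both LKO libraries were above the control for Ehhadh, Acaa1b, Abcd2, Agps and Far1 and below it for Nudt19, Pecr and Acox3. The log2 differences there were 0.17 for Ehhadh, 0.34 for Acaa1b, 2.74 for Abcd2, 0.34 for Agps, 0.48 for Far1, -0.37 for Nudt19, -0.69 for Pecr and -0.20 for Acox3. Ehhadh was thus smaller within A54 than over all libraries (0.86), and Abcd2, whose single A54 control is the lowest of all libraries, was larger. With 1 control these values have no test. Over all 34 members both LKO libraries were above the control for 16 and below it for 14, and 4 were split. Of the peroxins 4 were above, 4 below and 3 split. The genes named above were picked by a fit that includes the A54 libraries, so their signs here are no separate support.

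A further 48 genes of the organelle were followed, 47 of which could be tested. Of these 13 had a higher and 34 a lower mean in LKO, with a median of -0.10. At an unadjusted p under 0.05, 2 were higher (12.8% of all genes) and 11 lower (9.50%), and by edgeR none passed after adjustment. The groups did not overlap for 2 higher and 2 lower genes (1.72% and 2.23% of all genes), which were the 4 with the smallest p. Nudt7, the other peroxisomal hydrolase of coenzyme A esters, stood at 304, 228, 372, 208 and 300.2 CPM in control 1 to 5, whereas LKO 1 to 5 stood at 202, 172, 44.4, 141 and 111 CPM, a log2 fold change of -1.07 (SE 0.33, edgeR adjusted p = 0.130). LKO 3 was its lowest library.

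Hao1, which oxidizes glycolate, was at 143 to 218 CPM in control and 75.7 to 136 CPM in LKO (-0.66, edgeR adjusted p = 0.103). Pmvk, a kinase of the mevalonate pathway, was at 9.84 to 15.3 CPM in control and 16.2 to 27.0 CPM in LKO (0.64, edgeR adjusted p = 0.101). Hsdl2, a dehydrogenase-like protein, was at 86.9 to 105 CPM in control and 109 to 156 CPM in LKO (0.42, edgeR adjusted p = 0.108).

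PPARalpha targets outside the peroxisome gave a reference for Ehhadh and Acaa1b. Of 18 genes 15 had a higher mean in LKO, with a median of 0.31. At an unadjusted p under 0.05, 10 were higher and 0 lower (12.8% and 9.50% of all genes). By edgeR none passed after adjustment, and the smallest adjusted p was 0.0767, for the thioesterase Acot2 (log2 fold change 1.35). The next 3 were the omega-hydroxylases Cyp4a14 (2.70) and Cyp4a10 (1.36) and the kinase Pdk4 (2.09), all above the 0.86 of Ehhadh. The mean of this list was at 0.70 ± 0.29 in LKO relative to the controls, and all 5 LKO libraries (0.42 to 1.10) were above all 5 controls (-0.17 to 0.21). In LKO 3 it was 0.42 while Ehhadh was above every control and Acaa1b was within their range.

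Of 10 regulators 4 had a higher and 6 a lower mean, with a median of -0.18. At an unadjusted p under 0.05, 1 regulator was lower, where 9.50% of all genes were. This was Rxra, the partner of PPARalpha, at 357 to 430.3 CPM in control and 242 to 378 CPM in LKO (log2 fold change -0.36, SE 0.13, edgeR adjusted p = 0.153). Hnf4a, a hepatocyte transcription factor that is also among the hepatocyte markers, was at 472 to 541 CPM in control and 381 to 469 CPM in LKO, without overlap (-0.21, edgeR adjusted p = 0.224). Prdm16, a coregulator known from brown fat, was at 1.20 (SE 0.57) with LKO 3 highest at 3.50 CPM, and the coactivator Ppargc1a was at -0.21 (SE 0.12). Ppara itself was at 385 to 638 CPM in control and 223 to 551 CPM in LKO (-0.27, SE 0.22, edgeR adjusted p = 0.486), and is given as the receptor these lists turn on, with its values seen first.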

How the data were processed

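RNA from frozen whole liver of 10 mice was depleted of ribosomal RNA, made into stranded libraries and read for 101 cycles from 1 end, per the labels' protocols. The authors deposited a table of raw gene counts, whole numbers with no normalization, with genes named by NCBI Gene number. GRCm39, DESeq2 and bcl2fastq 2.20 appear in the submitters' processing notes. The names of aligner and counter and the strand setting were not given in the sources used here.

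Symbols came from a RefSeq gene table, which matched 25275 of 27179 genes. Unmatched genes took 0.693% of counts and were kept. No column was left unused (0). Groups were taken from the titles and genotype labels. Between libraries of a group, chi-square per degree of freedom was at least 32.1, so none agreed within sampling noise.

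Low-count genes were filtered by filterByExpr, TMM set the scaling, and LKO was compared with control in edgeR 4.0.16 (R 4.3.3; quasi-likelihood F test, two-sided, Benjamini-Hochberg over 15226 genes, threshold 0.05). The script was tested on simulated counts. CPM values are counts relative to the TMM-scaled library size, and class means used log2 CPM with a prior count of 2. Levels per length used merged exons of GENCODE M21, and promoters came from RefSeq on GRCm38.p6. The p-values measure the spread between these mice. The genes and lists were chosen with earlier results of these data known.

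Values in every library were given for the 3 peroxins and 8 matrix enzymes with the smallest p, the import receptors, both thiolases, Cat, the transporters and the ether lipid enzymes. Up to 4 genes with the smallest p were taken from each further list, most of them given by range or fold change. DESeq2 1.42.0, limma 3.58.1, other scalings and filters, a replicate block, the title code and left-out libraries were alternatives. Replicate numbers did not pair the mice: correlations of same-numbered libraries ran from -0.399 to 0.419.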

Additional observations from a re-analysis of the deposited data

Results flagged for a closer look

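In groups of 5 libraries, a library was picked out where its gap to the nearest other exceeded Dixon's 95% limit. Of 76 groups examined 11 met this. Chance gives about 1 in 20 for a single group. The groups share the same libraries, and the class means are made of the same genes. The 11 are therefore not independent, and no excess over chance is read from their number.

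LKO 3 was far below the other LKO libraries in 8 of the 11. Pex7 stood at 27.39 CPM there, against 41.94 to 44.68 in the others. Pex5 stood at 40.31 CPM against 63.34 to 67.26, and Pex19 at 57.37 CPM against 87.88 to 98.26. Lonp2 was at 215.8 CPM against 345.7 to 364.3, Hsd17b4 at 391 CPM against 615.5 to 681.3, and Eci2 at 82.19 CPM against 142.3 to 148.7. The class mean of peroxins in LKO 3 was -0.5326 on the log2 scale and that of matrix enzymes -0.5093, while the other LKO libraries were at -0.06 to 0.08 and 0.00 to 0.19.

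Control 4 was the low library in 2 groups. Scp2 stood at 2473 CPM there against 3559 to 3873 in the other controls, and Decr2 at 121.3 CPM against 162.7 to 176.5. LKO 4 was high in the difference of matrix enzymes minus peroxins, at 0.1813 against 0.02 to 0.06 in the other LKO libraries.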

How the results depend on the processing

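Depth did not limit most members, but Pex11a, at under 1 CPM, was near the low end. Counts of genes called were 31 without a filter on low counts, 20 with at least 1 CPM in 5 libraries, 296 at an adjusted p under 0.1, 1186 by DESeq2, 2460 by limma voom, 0 with the title code as covariate and 2363 without control 4 and LKO 3 together, an alternative chosen after the data were seen. Members called were 2, 6 and 5 by DESeq2, by limma voom and without both libraries, and 0 under the other 10 alternatives that left out no single library.

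With total-count scaling, 12 members were higher and 0 lower at an unadjusted p under 0.05 (24.7% and 1.92% of all genes). On that scaling 4 and 0 did not overlap (3.59% and 0.433%). The medians were 0.12 for peroxins and 0.52 for ether lipid enzymes, against 0.235 for all genes. With the title code, 1 was higher and 0 lower (3.09% and 1.90%), the median of peroxins was 0.0317, that of matrix enzymes minus peroxins was -0.19, and Lpcat3 was at -1.99 (adjusted p = 0.0565). Without the A54 libraries 3 higher and 3 lower did not overlap (7.49% and 8.55%). Without control 4 and LKO 3, 8 were higher and 6 lower at that p (17.4% and 13.9%), and 6 and 4 did not overlap (12.0% and 9.43%).

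The sign reversed for Pex7 (0.0676), Pex3 (0.0741) and Pex5 (0.10) with total-count scaling, where the median of all genes was 0.235. Abcd3 reversed with upper-quartile scaling (0.0234), total counts (0.22), no filter (0.0033), 1 CPM (0.00626), limma voom (0.00533), the title code (0.0774) and both libraries out (0.0569). Gnpat reversed with upper-quartile scaling (0.0218), total counts (0.22), 1 CPM (0.00277), limma voom (0.0091), the title code (0.17) and both libraries out (0.015). The cause of these changes was not tested.

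Leaving out 1 library at a time gave 2 to 2296 genes called and 0 to 6 members called. The highest count of genes came without control 4, then 86 without LKO 1, and 2 to 5 without any other library but LKO 3. At an unadjusted p under 0.05, 4 to 7 members were higher (8.65% to 19.1% of all genes) and 1 to 5 lower (6.29% to 14.0%). Without overlap, 1 to 4 were higher (1.89% to 11.0% of all genes) and 1 to 4 lower (2.46% to 7.95%). The highest counts without overlap came without control 4, where 11.0% of all genes were higher and 7.95% lower in that way. Only 1 member was lower at that p without control 1, control 2, control 3 or LKO 5 (6.29% to 7.49% of all genes). It was 2 members without control 5, LKO 3 or LKO 4 (8.14% to 8.40% of all genes). Abcd3 ran from -0.10 to 0.13 and Gnpat from -0.0393 to 0.0464. The median of matrix enzymes minus peroxins ran from -0.08 to 0.05.

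With a replicate block, 2 genes and 0 members were called, but replicate numbers did not pair the mice.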
